A study of Drosophila melanogaster with 3 samples.

Results

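Insulator and promoter architectural proteins bind DNA at the borders of chromatin domains and at the starts of housekeeping genes, or join the proteins bound there, and shape which parts of a chromosome contact each other. In Drosophila many of them are zinc finger or BTB domain proteins that are made in most cells of the embryo. The genes described here code for 10 of them, Chro, pzg, M1BP, Dref, BEAF-32, su(Hw), CTCF, pita, Cp190 and mod(mdg4). They were taken as a list of names, out of 13945 protein-coding genes of the annotation, and each was examined from 2 kb before the gene to 2 kb after it. What follows describes where peaks of tagged CG18262 lay at the genes that code for these proteins, and not where the proteins themselves bind.

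The data came from chromatin immunoprecipitation with sequencing (ChIP-seq) of whole embryos, males and females pooled, collected at 0 to 16 hours. All embryos carried a transgene that codes for CG18262 joined at its C-terminus to GFP, and the precipitating antibody was raised against GFP; the labels do not say which promoter drives the transgene. There were 3 biological replicates of 1 line and no other group, so no conditions were compared and no test was run. Each replicate list and the list from pooled reads held 30000 peaks, and 8529 of the pooled peaks formed the authors' list thresholded on the irreproducible discovery rate, a measure of reproducibility between lists; it is called the thresholded list below. Those 8529 were exactly the strongest of the pooled list. Peaks were ranked within a list by the authors' signal value, with rank 1 the strongest. The scale of that value is not stated, so ranks and not values were compared between lists. The read depth is unknown. Neither input controls nor embryos without the transgene were analysed here. Binding of the fusion protein and unspecific enrichment at accessible promoters therefore cannot be told apart.

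The sequences that follow are those under the peaks the results turn on, read 5′ to 3′ on the strand of the named gene, from the RefSeq copy of the dm6 genome. For M1BP, Cp190, mod(mdg4) and su(Hw) the 151 bp centred on the strongest summit are shown. They lie at chr3R:8731828-8731978, chr3R:15275316-15275466, chr3R:21378696-21378846 and chr3R:14308781-14308931, all outside annotated exons. For Chro and Dref the stretch between the gene's start and that of its divergent neighbour is shown, at chr3L:22878985-22879088 and chr2L:9967230-9967312. All 6 genes are on the minus strand. The summit shown for mod(mdg4) lies 1370 bp before the start of that gene and 206 bp from the start of its neighbour tin. Capitals mark runs of at least 6 bases made of A and T alone, because the summits of these data lie in A- and T-rich sequence.
M1BP: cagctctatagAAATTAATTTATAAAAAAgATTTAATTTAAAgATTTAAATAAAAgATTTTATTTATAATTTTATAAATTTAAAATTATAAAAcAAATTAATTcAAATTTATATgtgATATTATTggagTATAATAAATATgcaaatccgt
Cp190: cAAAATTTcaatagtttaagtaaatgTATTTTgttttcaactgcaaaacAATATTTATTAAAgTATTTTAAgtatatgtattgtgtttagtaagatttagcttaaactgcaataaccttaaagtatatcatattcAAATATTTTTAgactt
mod(mdg4): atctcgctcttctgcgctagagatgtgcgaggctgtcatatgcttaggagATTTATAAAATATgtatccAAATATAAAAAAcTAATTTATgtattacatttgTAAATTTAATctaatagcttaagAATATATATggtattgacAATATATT
su(Hw): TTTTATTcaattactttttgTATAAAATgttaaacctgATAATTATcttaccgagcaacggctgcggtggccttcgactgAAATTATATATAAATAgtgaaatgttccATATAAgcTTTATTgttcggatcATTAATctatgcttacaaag
Chro: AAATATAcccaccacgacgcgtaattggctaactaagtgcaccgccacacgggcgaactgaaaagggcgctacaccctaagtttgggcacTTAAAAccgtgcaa
Dref: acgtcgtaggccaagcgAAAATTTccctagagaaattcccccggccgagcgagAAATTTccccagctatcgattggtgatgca

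Under the M1BP peak 118 of 151 bases stood in such runs, and the longest run had 37 bases. Its share of 78.1% was reached by 4 of the 8529 thresholded summits, M1BP included. Cp190, mod(mdg4) and su(Hw) had 29.8%, 39.7% and 37.7%, and the median over all thresholded summits was 28.5%. The share at mod(mdg4), the highest of the 3, was reached by 24.4% of them. At the other genes the window at the strongest summit held exon sequence, and its share ran from 14.6% at Dref to 45.0% at pita. At Dref and at CTCF, with 18.5%, it was below the median of 28.5%, and at the rest it was above. The median in windows 300 bp to either side of all summits was 11.3%. The short stretch between the starts of Dref and RpL13, which holds the summit of the Dref peak, had 15.7%. The stretch between Chro and Ssl1 had 12.5%, and the Chro summit itself lay outside it, in the 5′ UTR of Chro, where the 151 bp window had 35.1%.

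All 10 genes had at least 1 thresholded summit inside the gene or within 2 kb, compared with 43.8% of all protein-coding genes (6101 of 13945). In 9 of them a thresholded summit lay within 500 bp of one of the gene's own annotated start sites, called a promoter peak here, compared with 26.7% of all genes. The exception was mod(mdg4). In 8 genes a promoter peak was also found in the 8529 strongest peaks of every replicate, with summits within 100 bp, compared with 18.4% of all genes. The strongest 250 thresholded peaks included a promoter peak of 3 of the genes, Chro, Cp190 and M1BP, compared with 1.31% of all genes; the limit of 250 was chosen after the ranks were seen. The genes were listed with such results known, so these counts describe them and test nothing.

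The 10 genes differed from all coding genes in crowding and in length. Of the 10 genes 7 had another coding gene's start within 1 kb of one of their own, compared with 42.9% of all coding genes, and the share of genes with a promoter peak was 40.8% among genes with such a neighbour and 16.2% among the others. All 7 crowded genes had a promoter peak, as did 2 of the 3 others, CTCF and BEAF-32. The median length of the 10 genes was 4174 bp, compared with 2166 bp for all coding genes. The part of these differences in the counts was not tested.

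The 10 genes together held 20 thresholded summits, or 1.98 per 10 kb of the examined windows, compared with 0.706 per 10 kb in the windows of all coding genes. In 6 genes there were 2 or more, compared with 20.6% of all genes. At CTCF and pzg these were a single pair, 199 bp and 201 bp apart, and whether such a pair is 2 sites was not tested. The strongest peak of each gene fell into a wide span of ranks, from 12 at Chro to 4271 at su(Hw), with a median of 1848. The median was 2734 over the 6101 coding genes with a summit. For promoter peaks alone, the median best rank was 2001 over 9 genes and 3538 over the 3728 coding genes that had one. By the strongest peak the order was Chro, Cp190, M1BP, mod(mdg4), Dref, pzg, CTCF, pita, BEAF-32 and su(Hw). In the replicates the ranges of neighbours in this order overlapped for M1BP and mod(mdg4) and for each pair of neighbours from Dref to su(Hw), so the order within these stretches is not firm. The ranges of Chro, Cp190 and M1BP did not overlap, nor did those of mod(mdg4) and Dref.

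**Figure D1:**
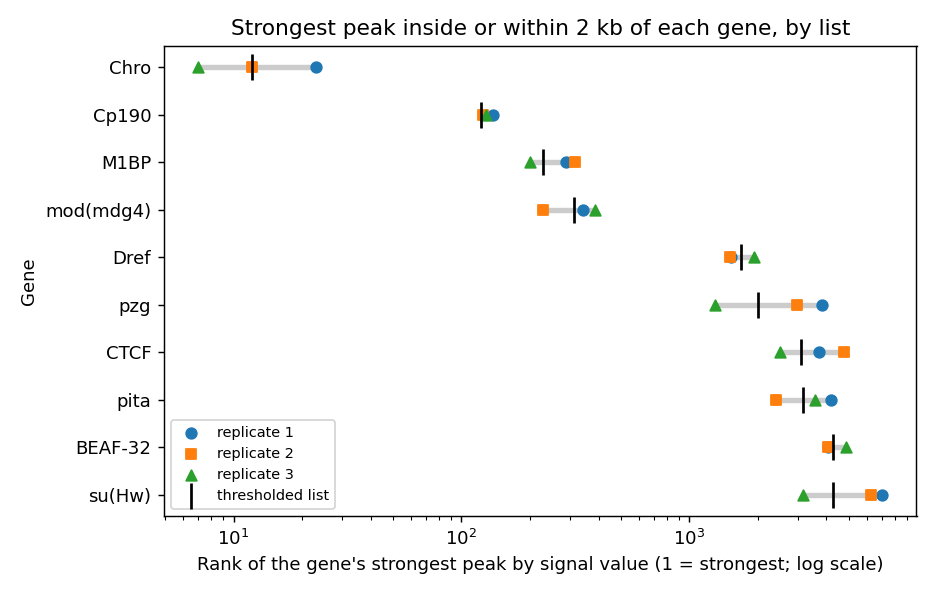
Rank of the strongest peak inside or within 2 kb of each gene (horizontal axis, log scale, 1 is the strongest) in the 3 replicate lists (symbols, with a grey bar from lowest to highest) and in the thresholded list (black line). Chro stands at 12 and su(Hw) at 4271 in the thresholded list, and Chro, Cp190, M1BP and mod(mdg4) lie left of the other 6 genes in every list.

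Chro, a chromodomain protein of the interbands of polytene chromosomes, had the strongest peak of the group. Its gene (FBgn0044324, 3L, 22873702 to 22878984, minus strand) had 1 thresholded summit, at 22878907, 77 bp inside the gene from its outermost start, in the 5′ UTR. The peak spanned 22878598 to 22879218 and ranked 12 in the thresholded list and 8 among its 3223 peaks at coding promoters. Its signal value was 2160 in replicate 1 (rank 23), 2193 in replicate 2 (rank 12) and 4016 in replicate 3 (rank 7). The 3 replicate summits lay within 14 bp of it. The start of Ssl1, which codes for a subunit of the general transcription factor TFIIH, lay 182 bp from the summit and 105 bp from the start of Chro, on the other strand. The peak thus covered both starts, and which of the genes it belongs to cannot be told apart.

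pzg codes for a zinc finger protein, also called Z4, that is found with Chro at interbands. Its gene (FBgn0259785, 3L, 21286099 to 21290310, plus strand) had 2 thresholded summits in 1 region from 21285629 to 21286191, at 221 bp and 20 bp before the start. They ranked 2001 and 4647, and the stronger one lay in the 5′ UTR of the divergent neighbour CG12974, 84 bp from that gene's start. Replicate 2 placed the stronger summit at rank 2974 and replicate 3 at rank 1301, each within 1 bp. The weaker summit ranked 9781 and 4311 in these replicates. Replicate 1 had a single summit there, at rank 3805, 109 bp from the stronger and 92 bp from the weaker summit. The pair was therefore resolved in replicates 2 and 3 and not in replicate 1.

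M1BP is a zinc finger protein that binds the motif 1 element of core promoters. Its gene (FBgn0037621, 3R, 8729790 to 8731698, minus strand) had 1 thresholded summit and no further pooled summit in its window, the lowest number of the 10 genes. The summit, at 8731903, lay 205 bp before the start, between M1BP and the divergent gene CG8202, whose start was 188 bp away. The signal value was 842.6 in replicate 1 (rank 287), 786.0 in replicate 2 (rank 315) and 1677 in replicate 3 (rank 200), and in the thresholded list the peak ranked 227. The replicate summits lay within 11 bp.

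Dref codes for the factor that binds the DNA replication-related element (DRE) at promoters of genes for cell growth and replication. Its gene (FBgn0015664, 2L, 9964147 to 9967229, minus strand) had 2 thresholded summits. The stronger, at 9967282, lay in the 84 bp between the start of Dref and that of RpL13, a gene for a cytosolic ribosomal protein, at 53 bp and 31 bp from them. Its signal value was 321.0 in replicate 1 (rank 1532), 330.0 in replicate 2 (rank 1505) and 449.0 in replicate 3 (rank 1931), and in the thresholded list it ranked 1695. The ranks were close in the 3 lists, but the summit of replicate 2 lay 90 bp away and those of the others within 19 bp. The second summit, at rank 4767, lay past the end of Dref in the 5′ UTR of CG5850, 51 bp from the start of that gene.

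BEAF-32, the boundary element-associated factor, binds clusters of CGATA at insulators and housekeeping promoters. Its gene (FBgn0015602, 2R, 14770469 to 14772630, plus strand) had thresholded summits at 14770386, 83 bp before the outermost start, and at 14771263, 38 bp from an internal start. They ranked 4255 and 6758. The first ranked 4052, 4058 and 4898 in replicates 1 to 3, with summits within 9 bp. The second ranked 11027, 7561 and 5814, so in replicate 1 it lay below the 8529 strongest. No other coding gene started within 500 bp, but starts of the antisense RNA asRNA:CR42254 lay 116 bp and 32 bp from the summits. The pooled list held 5 further summits in the window, all below the threshold.

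su(Hw) binds the insulator of the gypsy retrotransposon, where it recruits Cp190 and mod(mdg4). Its gene (FBgn0003567, 3R, 14304455 to 14308589, minus strand) had the weakest best peak of the 10 in the thresholded list. Its rank there was 4271, close to the 4255 of BEAF-32. It was also the weakest in replicates 1 and 2, but in replicate 3 pita (3571) and BEAF-32 (4898) ranked behind it. The summit, at 14308856, lay 267 bp before the start and 233 bp from the divergent start of Polr2I, which codes for a subunit of RNA polymerase II. It ranked 7033 in replicate 1, 6249 in replicate 2 and 3152 in replicate 3, with signal values of 95.43, 107.3 and 309.9 on the scale of each list. Replicate 3 was thus the highest, and its summit lay 22 bp from that of the thresholded list. The thresholded peak was narrow, at 212 bp compared with a median of 404 bp in its list.

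CTCF is the zinc finger protein of insulators that is shared with mammals. Its gene (FBgn0035769, 3L, 7353578 to 7356713, minus strand) had no other coding start within 1 kb. A summit at 7356593 lay 120 bp inside the gene in its 5′ UTR and ranked 3081, and another at 7356792 lay 79 bp before the start and ranked 7209. The stronger ranked 3700, 4793 and 2494 in replicates 1 to 3 and the weaker 5338, 8927 and 9231. Both were found within 36 bp in all replicates, and the stronger summit was the one inside the gene in every list.

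pita is a zinc finger protein that binds boundaries of the bithorax complex. Its gene (FBgn0034878, 2R, 23548967 to 23554712, minus strand) had 3 thresholded summits, none at its outermost start. One, at 23551373 and rank 5189, lay 178 bp from an internal start of pita and 60 bp from the start of Dcp-1, an effector caspase gene on the other strand, within 5′ UTRs of both genes. It ranked 5000, 4026 and 7556 in replicates 1 to 3. The others, at ranks 3166 and 8264, lay past the end of pita at the starts of wmd and levy, which codes for a subunit of cytochrome c oxidase. At the outermost start of pita the pooled list had a summit 114 bp upstream at rank 11002, below the threshold. Replicate 2 had it at rank 13352 and replicate 3 at rank 7863, and no summit of replicate 1 lay within 100 bp.

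Cp190 is a BTB domain protein that joins most insulator complexes without binding a site of its own. Its gene (FBgn0000283, 3R, 15270432 to 15275241, minus strand) had 1 thresholded summit, at 15275391, 150 bp before its start and 131 bp from the divergent start of CG4338. The signal value was 1205 in replicate 1 (rank 138), 1166 in replicate 2 (rank 124) and 2010 in replicate 3 (rank 128), and in the thresholded list the peak ranked 122. The 3 summits lay within 4 bp of it, the closest of the group, and the highest replicate rank was 1.11 times the lowest. The peak spanned 587 bp, from 15275102 to 15275688.

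mod(mdg4) codes for a family of BTB proteins whose last exons are joined by trans-splicing from separately transcribed units of either strand. Its gene (FBgn0002781, 3R, 21350846 to 21377401, minus strand) is by far the longest of the group, at 26556 bp, and has 1 annotated start. It had 5 thresholded summits, none within 500 bp of that start. The strongest, at 21378771, lay 1370 bp before the start and 206 bp from the start of tin, a homeobox gene of heart and muscle precursors, so it lay nearer to tin than to mod(mdg4). It ranked 342, 227 and 386 in replicates 1 to 3 and 311 in the thresholded list.

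The second summit of mod(mdg4), at 21365453, lay 11948 bp inside the gene and ranked 713, 708 and 665 in replicates 1 to 3 and 703 in the thresholded list, with replicate summits within 11 bp. The annotation lists the trans-spliced units as 23 genes of their own, named pre-mod(mdg4) with a letter. The start of pre-mod(mdg4)-E lay 35 bp from this summit, and starts of 10 of the units lay within 500 bp, 7 on the plus and 3 on the minus strand. Summits at ranks 6232 and 7177 also lay within 500 bp of such starts, at 97 bp from pre-mod(mdg4)-AA and 155 bp from pre-mod(mdg4)-T. Starts of 3 units lay within 500 bp of the former and of 10 units within 500 bp of the latter, so these 3 summits gave all 23 units a promoter peak. The summit at rank 7177 had no match within 100 bp in any replicate, and the nearest lay 114 bp away in replicate 1 and 105 bp away in replicate 2, with none within 1000 bp in replicate 3. The last of the 5, at rank 4038, lay 1294 bp past the gene's end, 49 bp from the start of aus. At the start of mod(mdg4) itself, summits 39 bp and 286 bp upstream ranked 10336 and 12057 in the pooled list, below the threshold. The first ranked 16491 in replicate 1 and 7343 in replicate 2 and was unmatched in replicate 3. The second ranked 7860 in replicate 2 and 17859 in replicate 3 and was unmatched in replicate 1. In the 8529 strongest peaks of replicate 2 alone all 10 genes, mod(mdg4) included, thus had a promoter peak, and in those of replicates 1 and 3 there were 9. The 1294 bp and 1370 bp of mod(mdg4) were the distances closest to the 2 kb limit from within. The closest from outside were 2632 bp at su(Hw), for a peak of rank 4135, and 2671 bp at mod(mdg4), for a peak of rank 4231.

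**Figure D2:**
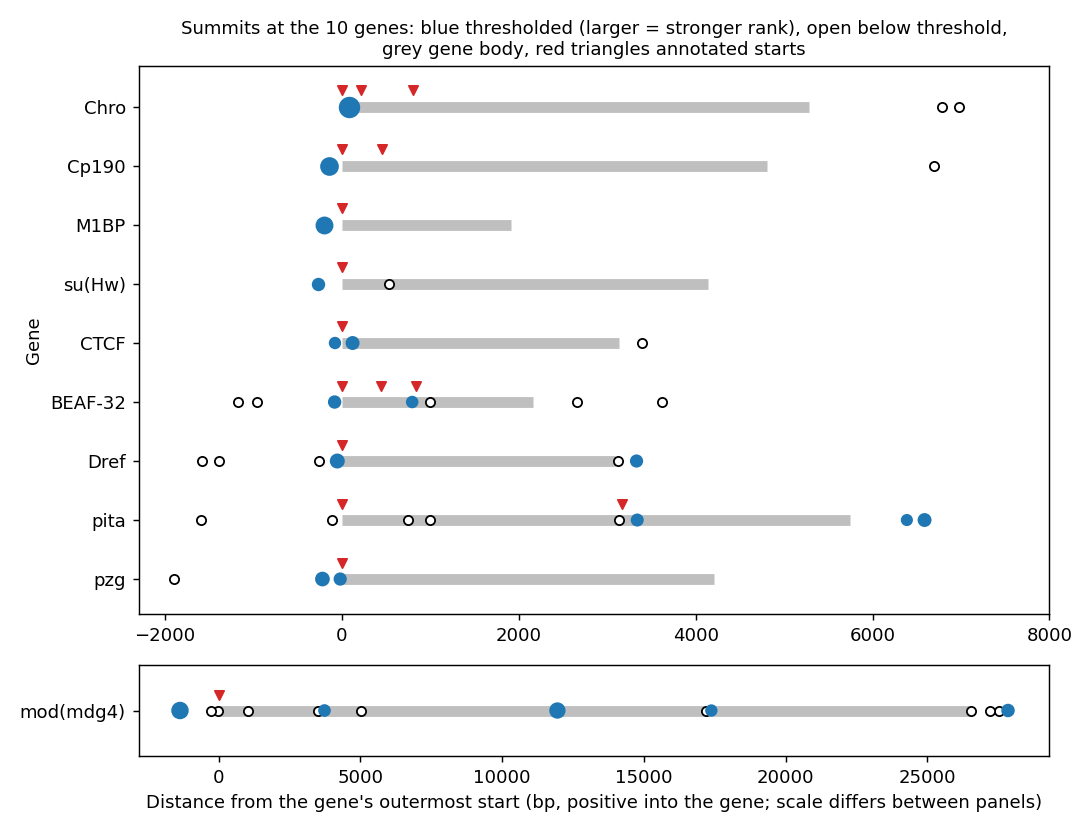
Summits along each gene, as distance in bp from its outermost start, positive into the gene. Filled circles are the 20 thresholded summits, larger for stronger ranks, open circles are pooled summits below the threshold, grey bars are gene bodies and triangles are annotated starts; mod(mdg4), with 5 thresholded summits and none within 500 bp of its start, is drawn on its own scale.

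The summits of the group thus stood at starts, though often at a neighbour's. All 20 lay within 500 bp of a start of some coding gene, compared with 44.3% of the thresholded summits in the windows of all coding genes. The distance to the nearest coding start was 20 to 233 bp, with a median of 81 bp. Without the pre-mod(mdg4) units the number was 17 of 20. The windows of the 10 genes were also richer in starts, and 30.8% of their bases lay within 500 bp of a coding start, compared with 14.9% for all coding genes. The nearest coding start was that of the listed gene itself for 6 summits and that of another gene for 14. By place, 9 summits lay in 5′ UTRs, 7 in intergenic sequence, 2 in introns, 1 in a non-coding exon and 1 in coding sequence, that of levy. Neither the nearest gene nor the place was set against all thresholded summits, so these counts describe the 20 alone.

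At 6 of the 7 crowded genes the neighbour was divergent, with the starts 84 to 500 bp apart: Chro with Ssl1, Cp190 with CG4338, M1BP with CG8202, su(Hw) with Polr2I, Dref with RpL13, and pzg with CG12974. The summit lay between both starts at Cp190, M1BP, su(Hw) and Dref. At Chro it lay inside the gene, and at pzg the stronger summit lay inside the neighbour and the weaker one between the starts. The remaining pair, pita and Dcp-1, overlapped at their 5′ ends, with the starts 238 bp apart and the summit between them. A peak within 500 bp of starts of both genes counts as a promoter peak of both.

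**Figure D3:**
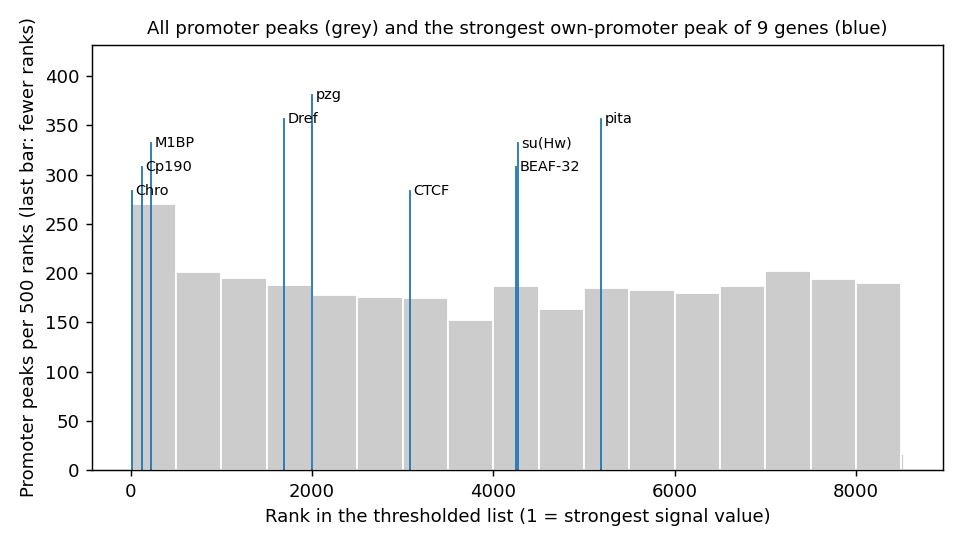
Number of thresholded peaks at coding promoters in each 500 ranks (grey bars) and the rank of the strongest own-promoter peak of 9 of the 10 genes (blue lines, mod(mdg4) has none). The first bar holds 270 promoter peaks, among them those of Chro, Cp190 and M1BP, and the other 6 genes are spread from rank 1695 to 5189.

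Of the 20 summits 17 were matched within 100 bp in all 3 full replicate lists (88.8% of all thresholded peaks were), and 14 in the 8529 strongest of each (65.6% of all). For the 17, the farthest replicate summit lay a median of 27 bp away, with a range of 4 to 99 bp, compared with a median of 35 bp over all thresholded peaks. The highest replicate rank of a summit was 1.11 to 3.29 times the lowest for the 3 summits above rank 250, where the median over all peaks was 1.65. For these 3 summits the median was 1.57. For the 3 summits from there to rank 2000 it was 1.07 to 1.7 times, with a median of 1.28, compared with 1.42 over all peaks. For the 11 matched summits beyond rank 2000 it was 1.21 to 2.57 times, with a median of 1.86, compared with 1.55. Of the 3 others, those at pzg and at rank 3166 near pita lacked a match in replicate 1 alone, where the nearest summit lay 109 bp and 101 bp away. Each of these replicate 1 summits was counted as the match of the weaker summit beside it, at 92 bp near pzg and 99 bp near pita. The third, at rank 7177 in mod(mdg4), had no match in any replicate.

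Below the threshold the pooled list held 29 more summits at the 10 genes, of 49 in all, at ranks from 8891 to 29075. All 3 replicate lists had a match for 4 of them, of which 3 were at Dref and 1 at CTCF, compared with 25.2% of all pooled peaks below the threshold. There were 2 with no match in any replicate. Of the 29, 6 lay within 500 bp of one of the gene's own starts. Another 6, in part the same, lay 200 to 216 bp from a thresholded summit. Apart from the matches in all 3 lists, these counts were not set against all pooled peaks below the threshold. No pair of neighbouring summits in the pooled or the thresholded list was closer than 199 bp, and 5110 of 29994 neighbouring pairs in the pooled list were 190 to 220 bp apart, compared with 861 at 221 to 251 bp. The pairs at CTCF, pzg and the end of pita, 199 to 201 bp apart, therefore stand at the smallest spacing the lists hold, and whether each is 2 sites was not tested.

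The sequence at the summits was rich in A and T in most of the genes. The A and T share of the 101 bp around the 20 summits had a median of 68.3% and ranged from 41.6% at the weaker summit near levy to 92.1% at M1BP, compared with a median of 70.3% over all thresholded peaks. It was above the mean share of the windows 300 bp to both sides at 13 of the 20 summits, and at 83.3% of all thresholded summits. At Chro the share was 68.3% at the summit and 72.3% at the sides, and at Dref 49.5% and 58.9%. At Cp190 it was 78.2% and 52.0%. A high rank thus came with a central A and T excess at Cp190 and M1BP and without one at Chro.

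**Figure D4:**
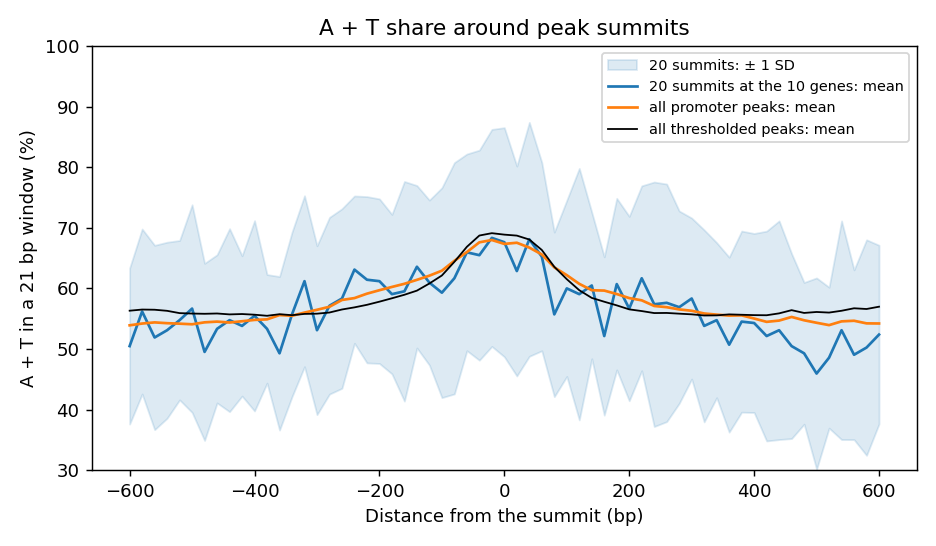
Mean A and T share of 21 bp windows (vertical axis, from 30%) by distance from the summit, for the 20 summits at the 10 genes (blue, with a band of 1 SD over summits), all promoter peaks (orange) and all thresholded peaks (black). At the summit the means are 67.6%, 67.3% and 68.9%, and the band of the 20 summits covers the other lines there.

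Short sequences known to be bound by some of the 10 proteins or by GAGA factor were looked for at the summits, on both strands. In the 101 bp windows, TATCGATA, the DRE, was in none of the 20, compared with 1.43% of all thresholded and 3.29% of promoter summits. In 301 bp windows it was in 5, those of both summits at CTCF, the first at BEAF-32 and both past the end of pita, compared with 4.36% of all thresholded and 10.6% of promoter summits. The paired windows at CTCF and pita overlap. GGTCACAC, the core of motif 1, was in 1 of the 301 bp windows, at the start of CG5850 beside Dref, compared with 7.26% of promoter summits. CGATA, part of the DRE, was in 3 of the 20 windows of 101 bp, compared with 18.8% of promoter summits, and in 13 of those of 301 bp, compared with 47.3%. TGGCGC, part of the CTCF consensus, was in none of the 101 bp windows and 1 of the 301 bp windows, compared with 3.32% and 10.6% of promoter summits. GAGAG, bound by GAGA factor, was in 1 and 2, compared with 8.94% and 30.2%. The window at the Dref promoter held CGATA and GAGAG and not the whole DRE, and that at M1BP none of the 5 sequences.

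Further genes of the same kind were counted for comparison. Of 25 names of architectural and promoter proteins 24 matched the annotation. Of these, 13 had a thresholded summit inside or within 2 kb and 11 a promoter peak, compared with 43.8% and 26.7% of all coding genes. The median best rank of the 11 promoter peaks was 5713, and none was among the strongest 250. Away from their starts, Trl had a peak of rank 14 and JIL-1 one of rank 146 inside the gene or within 2 kb. The strongest promoter peaks were those of SA1, a cohesin subunit (rank 682, shared with Gas41), and row, a zinc finger protein (745). Next came Cap-H2, a condensin II subunit (1652, shared with MED7), Trl, the gene of GAGA factor (1860), and JIL-1, a histone H3 kinase (4669). The JIL-1 promoter peak lay 460 bp from the start and ranked 2491, 8996 and 6601 in replicates 1 to 3. No thresholded summit was found at 11 of the 24, and no pooled summit either at 7, among them ZIPIC, dwg and vtd, the cohesin kleisin. Over all coding genes, 59.4% had a pooled summit inside or within 2 kb. The difference between these 24 and the 10 genes was not tested. The endogenous gene of the tagged protein, CG18262, had no summit in the pooled list inside or within 2 kb.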

How the data were processed

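ChIP-seq of whole embryos was deposited as peak lists on the dm6 genome: 1 list for each of 3 replicates, 1 from pooled reads and 1 thresholded on reproducibility. Which programs aligned the reads and called peaks, and in which versions, is not stated by the labels or files used here. The signal value is the authors' score for each peak, as deposited, and the −log10 q-value was also deposited by the authors; it was read and not used for ranks. The summit is the deposited offset from the start of the peak. Per the labels, each replicate is a separate biological sample, with fragments of 200 to 800 bp.

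Summits were placed on Ensembl release 115 genes (BDGP6.54), and sequence was read from the RefSeq copy of the same genome with Python 3.11.15, pandas 2.3.3, numpy 2.4.6 and matplotlib 3.10.9. A summit counted for a gene inside it or within 2 kb, as a promoter peak within 500 bp of any of its starts, and as matched with a replicate summit within 100 bp. The 10 genes and the further list were chosen with earlier results of these data known, and the same holds for the limits used. All 10 genes were named, with the genes sharing their promoter peaks, the gene nearest to each other summit, and the 5 of the further list with the strongest promoter peaks; ZIPIC, dwg and vtd were chosen after their values were seen, as was the count without pre-mod(mdg4) units. Of the further names Mzfp1 matched no gene. The placement and matching were checked on simulated data. Alternatives changed the flank, the promoter distance, the match, the list and the replicates. No p-value was computed, since there was 1 group.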

Additional observations from a re-analysis of the deposited data

How the results depend on the processing

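With no flank 5 of the 10 genes kept a thresholded summit, with 7 summits in all and a median best rank of 3081. There were 11 summits among the 4264 strongest peaks and 49 in the whole pooled list. The share of all coding genes with a summit was 15.6% with no flank, 37.3% with 1000 bp, 57.5% with 5000 bp, 29.4% among the 4264, 59.4% in the pooled list and 45.9% in replicate 2 alone. The share with a promoter peak was 18.3% at 200 bp, 30.6% at 1000 bp, 24.1% from the outermost start, 15.3% among the 4264, 44.7% in the pooled list and 27.9% in replicate 2 alone. Without 1 replicate at a time, where peaks had to be matched in the other replicates, the shares were 35.5% to 37.9% and 19.5% to 21.3%, and the median best rank was 1695 to 2388. The flank, the distance and the length of the list set how many bases or peaks are counted; for replicate 2 alone, the cause was not tested. Of the 10 genes 7 had a promoter peak at 200 bp or among the 4264 and 10 in the pooled list or in replicate 2 alone. Of the 70 values 46 stayed within their limits, these promoter counts of the 10 genes among them. The limit was 1.5-fold of the reported value for counts, and the SD over replicates for shares and the median rank. By this wide limit for counts, 14 summits without replicate 3 counted as unchanged from 20. The read depth is unknown, so counting error cannot be given.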
